A study of Mus with 6 samples.

Results

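Genes of glycogen metabolism, 9 in all, were examined in ribosome-bound RNA of mouse brain, as rows of the deposited table whose symbols are Pygb, Pygm, Pygl, Gys1, Gbe1, Gyg, Ppp1r3c, Ppp1r3d and Ugp2. All 9 were found among 18887 genes, and all 9 passed the filter on low values. The study compared RiboTag immunoprecipitates from whole brain, in which a tagged ribosomal protein of a chosen cell type is used to pull down that type's ribosomes with their mRNA. All 6 libraries are labelled as microglia, the brain's resident immune cells. The 2 control libraries have the genotype Ctr (MG_IP) and the 4 others the genotype KO (IRKO_IP), taken here to mean that the insulin receptor was deleted, since the study's title speaks of lost insulin signalling in microglia. The sources used here do not give the promoter that drives the tag, the means of deleting the receptor, or the age and number of animals. The comparison asks how ribosome-bound transcripts differ when insulin signalling is lost.

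Glycogen is a branched store of glucose. Cells build it from UDP-glucose, which Ugp2 supplies, on a glycogenin primer that Gyg encodes, and glycogen synthase (Gys1) lengthens the chains while the branching enzyme (Gbe1) adds branch points. Glycogen phosphorylase, of which Pygb, Pygm and Pygl encode the isozymes named for brain, muscle and liver, releases glucose units again. Ppp1r3c and Ppp1r3d encode subunits that carry protein phosphatase 1 to glycogen, where it activates the synthase and switches off the phosphorylase. Insulin favours storage by way of these phosphorylation steps, and in the adult brain most glycogen is held by astrocytes, the glial cells that supply neurons.

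Whether the libraries match their label was checked first. Recovered depth was 13858978 to 19010680 reads per library. Insr, the gene of the insulin receptor (chromosome 8, 3150922 to 3279649 in GRCm38.p6), stood at 565 and 532 normalized counts in the controls and at 290 to 366 in IRKO, a log2 change of −0.70 ± 0.135 (SE) with a limma adjusted p of 0.00211. Of all genes tested, 21.0% had a lower log2 change than Insr. Whether the fall of Insr lay in microglia was not tested. All 20 homeostatic microglia markers were read in the libraries and rose in IRKO, with a summed level of 96943 to 121378 in the controls and 255714 to 361936 in IRKO. All 18 astrocyte markers were read as well and fell, from sums of 659318 and 838006 in the controls to between 50505 and 81288 in IRKO. None of the 18 was at 0 in any group. All 5 red blood cell markers fell, as did 11 of 12 liver markers, and Ttr did not pass the test (adjusted p = 0.187 with limma). Liver markers summed to 4534 in control replicate 1 and 79773 in control replicate 2, and to between 691 and 12064 in IRKO, so the sums of the groups overlapped. Ttr made up most of each sum, with 3549 and 66778 in the controls and 658 to 11973 in IRKO. The overlap of the sums therefore does not describe the 11 markers that fell.

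All 9 glycogen genes fell in IRKO, by between 1.79-fold and 17.0-fold. Pygm, Ppp1r3c and Pygb fell furthest, Ugp2 and Gys1 came next, then Pygl, Ppp1r3d and Gyg, and Gbe1 fell least. Each passed the test of the whole table (limma on log2 of the normalized count + 1, adjusted p under 0.05), under which 29.0% of the 14698 genes tested were lower in IRKO. None rose, either at that threshold, at an unadjusted p under 0.05, with edgeR or with DESeq2. The median log2 change of the 9 was −2.15, against 0.02 over all genes tested. Whether replicates are separate animals is not stated, and p-values therefore reflect only the spread among these libraries, which may be technical. In such bulk samples fewer cells of a type and less RNA per cell cannot be told apart.

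**Figure D1:**
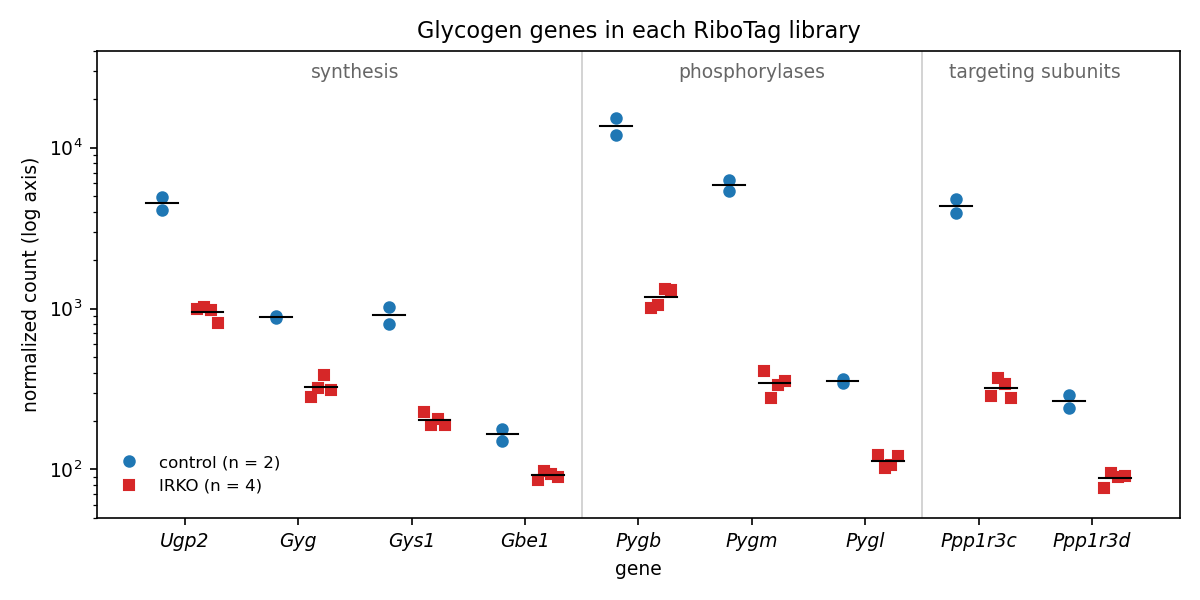
Normalized count (log axis) of each glycogen gene in the 2 control libraries (circles) and 4 IRKO libraries (squares), with the group mean as a bar. In all 9 genes every IRKO value lies below both control values. Levels of different genes are not comparable, because no length was divided out.

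In all 9 genes the 4 IRKO values lay below both control values, a pattern shown by 34.8% of all genes tested (the reverse pattern was shown by 32.8%). The narrowest gap was that of Gbe1, whose lower control was 1.55 times its highest IRKO value, and the widest that of Pygm, at 13.1 times. Replicates lay close together: the higher control was at most 1.27 times the lower one, and the highest IRKO value at most 1.49 times the lowest.

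Among the genes of synthesis, Ugp2 (chromosome 11, 21321126 to 21371267), whose enzyme makes UDP-glucose, measured 4911 and 4096 normalized counts in the controls. In IRKO it had 991, 1029, 978 and 816. The lower control was thus 3.98 times the highest IRKO library, and IRKO replicate 4 was the lowest. The log2 change was −2.24 ± 0.133 (SE, n = 2 against 4), with a limma adjusted p of 1.77e-06.

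Gys1 (chromosome 7, 45434839 to 45456617) encodes the glycogen synthase of muscle and brain, the enzyme whose activity insulin raises. Its normalized counts were 1015 and 803 in the controls and 228, 188, 207 and 189 in IRKO. The groups stood far apart beside the spread within them, and IRKO replicate 1 was the highest of its group. Gys1 changed by −2.15 ± 0.150 (log2, SE), with a limma adjusted p of 4.67e-06. Ugp2 and Gys1 had the most similar profiles of any pair among the 9, with a root mean square difference of 0.12 in log2 units once each profile was centred on its own mean over the 6 libraries.

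Gyg (chromosome 3, 20122083 to 20155117), the gene of the glycogenin primer, measured 867 and 896 normalized counts in the controls and 281, 318, 389 and 311 in IRKO. The controls nearly coincided, and IRKO replicate 3 stood highest in its group. Its log2 change of −1.45 ± 0.146 (SE) had a limma adjusted p of 5.02e-05. Gbe1 (chromosome 16, 70313949 to 70569720), the branching enzyme gene, had the lowest read numbers with Ppp1r3d, at 159 and 156 recovered reads in the controls and 87 to 99 in IRKO. Its normalized counts were 179 and 151 in the controls and 86.2, 97.6, 93.3 and 89.6 in IRKO. The branching enzyme gene therefore kept 55.6% of its control mean, more than any of the other 8 genes. It changed by −0.84 ± 0.172 (log2, SE; 95% interval −1.22 to −0.45), with a limma adjusted p of 0.00289.

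The phosphorylase genes, which act in breakdown, all fell, and Pygl kept the largest part of its control level. Pygb (chromosome 2, 150786796 to 150831748), the brain isozyme, measured 15234 and 11973 normalized counts in the controls and 1006, 1052, 1325 and 1306 in IRKO. Pygm (chromosome 19, 6384408 to 6398464), the muscle isozyme, which astrocytes also express, had 6288 and 5367 in the controls and 411, 276, 336 and 356 in IRKO. Pygl (chromosome 12, 70190815 to 70227683), the liver isozyme, had 342 and 364 in the controls and 123, 103, 106 and 122 in IRKO. Thus 8.62% of the control mean was left for Pygb, 5.92% for Pygm and 32.1% for Pygl.

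Log2 changes were −3.54 ± 0.158 (SE) for Pygb, −4.08 ± 0.161 for Pygm and −1.64 ± 0.157 for Pygl. The limma adjusted p was 4.36e-07, 3.06e-07 and 3.67e-05 in the same order. The 95% interval of Pygl (−1.99 to −1.28) lay wholly above those of Pygb (−3.89 to −3.18) and Pygm (−4.45 to −3.72), while the latter pair overlapped. Within the IRKO group the isozymes did not share an order of libraries: replicate 1 was the highest for Pygm and Pygl and the lowest for Pygb.

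The ratio of Pygb to Pygl counts within a library, in which any scaling of the library cancels, was 44.6 and 32.9 in the controls and between 8.19 and 12.5 in IRKO. For Pygm to Pygl it was 18.4 and 14.7 in the controls and between 2.69 and 3.35 in IRKO. Both ratios were lower in every IRKO library than in either control. In an exact permutation test over the 6 libraries (two-sided), each gave a p of 0.0667, the smallest that 2 against 4 libraries allow, so no such ratio could reach 0.05. The ratio of Pygm to Pygb was 0.41 and 0.45 in the controls and 0.25 to 0.41 in IRKO, groups that nearly touched (exact permutation p = 0.133).

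Markers of other tissues with these isozymes were set beside the phosphorylases. Pygl differed 1.06-fold between the controls, and the summed liver markers, mostly Ttr, 17.6-fold. Single liver markers differed between 5.09-fold (Hpx) and 26.0-fold (Ahsg), with Ttr at 18.8-fold. Among the liver markers Serpina3k, Fgb and Gc were at 0 in IRKO. Of 10 skeletal muscle markers 5 passed the filter, with 3 higher, none lower and 2 not called. Their sum was 336 and 341 in the controls and 561 to 709 in IRKO. Ckm, the muscle creatine kinase, had 0 and 0.97 normalized counts in the controls. Neutrophils also carry Pygl, and their 10 markers summed to 504 and 193 in the controls and 187 to 256 in IRKO. Of the 5 of these that passed the filter 3 fell (S100a8, S100a9 and Ltf) and 1 rose. The marker that rose, Cxcr2, had 67.5 and 41.6 in the controls and 127 to 163 in IRKO, where it made up most of the sum. The part of liver, muscle or neutrophil RNA in the changes of Pygl and Pygm was not tested.

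Both targeting subunits fell, and Ppp1r3d kept more of its control level than Ppp1r3c. Ppp1r3c (chromosome 19, 36731731 to 36736604), known as protein targeting to glycogen, measured 4814 and 3920 normalized counts in the controls and 286, 369, 341 and 279 in IRKO. This left 7.30% of the control mean, at a log2 change of −3.77 ± 0.152 (SE) and a limma adjusted p of 3.31e-07. Ppp1r3d (chromosome 2, 178411206 to 178414463), the subunit also called R6, had 241 and 291 in the controls and 76.3, 94.6, 89.4 and 91.6 in IRKO. It kept 33.1% of its control mean and changed by −1.58 ± 0.177 (log2, SE), with a limma adjusted p of 9.07e-05. The ratio of Ppp1r3c to Ppp1r3d counts was 20.0 and 13.5 in the controls and between 3.04 and 3.90 in IRKO (exact permutation p = 0.0667), lower in every IRKO library than in either control.

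Over the 36 pairs that the 9 genes form, the within-library ratio did not overlap between the groups in 29. Since the pairs share genes, these are not independent counts, and the smallest p after Benjamini-Hochberg adjustment of the exact permutation tests was 0.0857. The share of such pairs among all genes was not computed, so the 29 cannot be read as particular to glycogen genes. Among single genes tested, 34.8% had all IRKO values below both controls and 32.8% had all above. The 7 pairs whose ratios overlapped were Pygm with Ppp1r3c, Ppp1r3c with Pygb, Ugp2 with Gys1, Gys1 with Ppp1r3d, and every pairing of Pygl, Ppp1r3d and Gyg. Gbe1 overlapped with none, and the ratio of Gys1 to Gbe1, the synthase over the branching enzyme, was 5.67 and 5.31 in the controls and 1.93 to 2.64 in IRKO (exact permutation p = 0.0667).

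**Figure D2:**
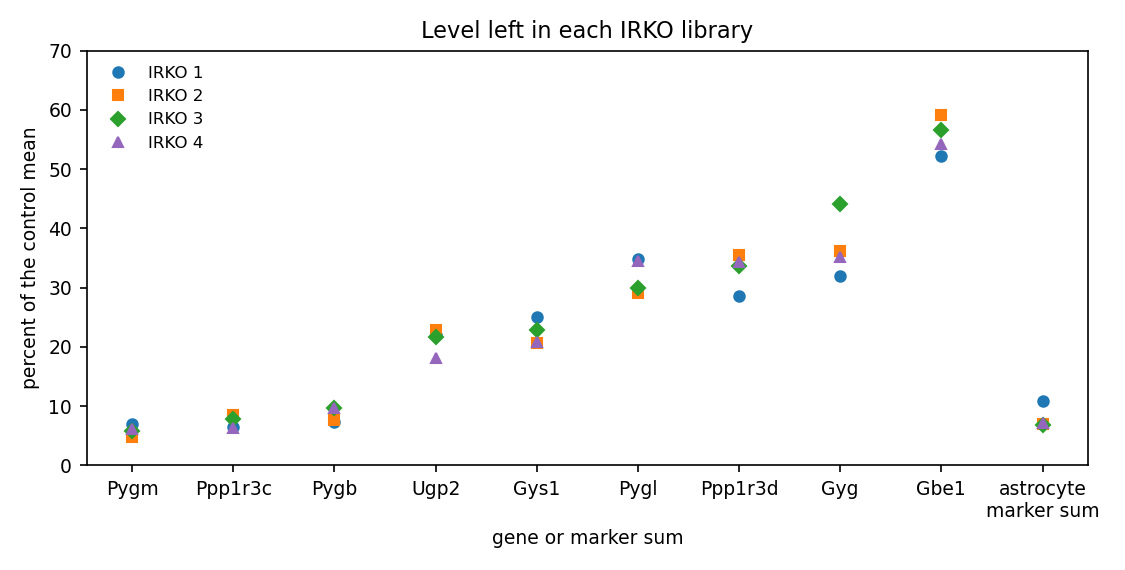
Level of each glycogen gene and of the summed astrocyte markers in the 4 IRKO libraries, as percent of the mean of the 2 controls. Pygm, Ppp1r3c and Pygb lie between 4.74% and 9.74%, near the astrocyte marker sum (6.75% to 10.9%), and Gbe1 lies highest, at 52.2% to 59.2%.

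The fall of these genes went along with that of astrocyte markers. The 18 astrocyte markers changed by −5.21 to −2.69 (log2), with a median of −4.11, and their sum was left at 6.75% to 10.9% of the control mean in IRKO. Pygm, Ppp1r3c and Pygb lay inside the log2 range of the single markers, with 9, 12 and 13 of the 18 markers falling further than they did. The other 6 glycogen genes fell less than every one of the 18 markers. In contrast, the 20 microglia markers changed by 0.93 to 2.10, and of 12 neuronal markers 9 rose, none fell and 3 were not called (median 0.91). IRKO replicate 1 held the highest astrocyte sum of its group (10.9%) and also the highest Pygm, Pygl and Gys1, but the lowest Pygb, Gyg, Gbe1 and Ppp1r3d. The part of astrocyte RNA in these results was not tested.

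The sign of these changes depended on the scaling. When each library was scaled so that its microglia markers had the same mean, all 9 genes stayed lower in IRKO and their median log2 change was −3.75, where that of all genes was −1.57. With the astrocyte markers set equal in that way the median of the 9 was 1.92, where that of all genes was 4.01, and 7 were called higher and none lower. On that scale Pygm stood at −0.01 (limma adjusted p = 0.974), Ppp1r3c at 0.30 (0.194) and Pygb at 0.54 (0.0162), whereas Gbe1 stood at 3.19 (9.80e-10). The order of the genes was the same under both scalings as with the deposited values, since each moves a library's genes together.

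**Figure D3:**
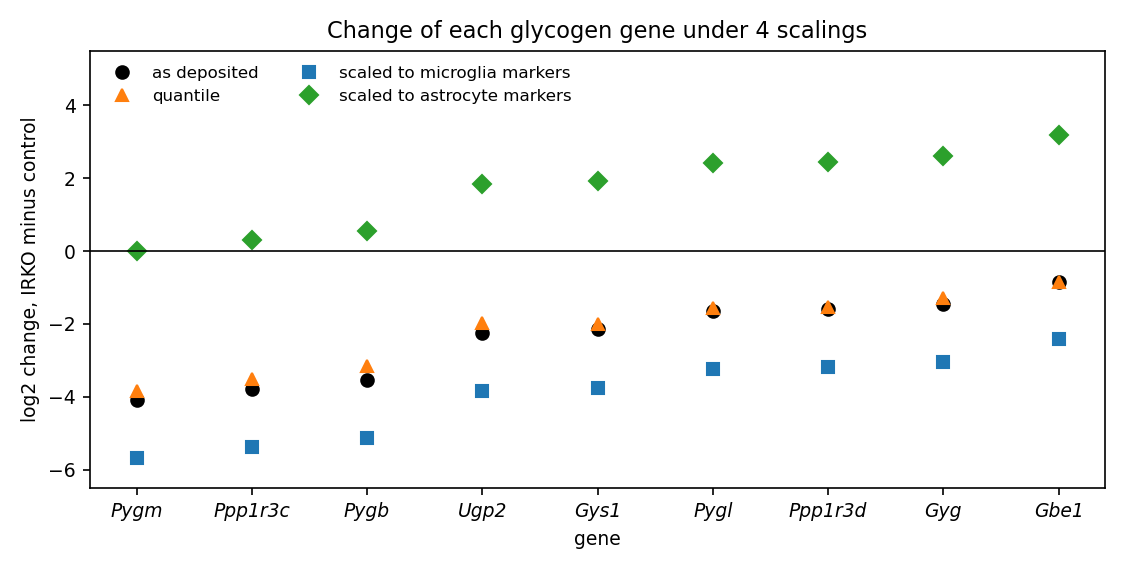
Log2 change (IRKO minus control) of each glycogen gene with values as deposited, after quantile normalization, and with libraries scaled to the mean of the microglia or astrocyte markers. All 9 lie below 0 in the first 3 scalings; with the astrocyte scaling Pygm is at −0.01 and the other 8 lie between 0.30 and 3.19.

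The rest of the pathway was more mixed. Of 29 further glycogen genes 26 passed the filter, and of these 12 fell, 5 rose and 9 were not called. Over all genes tested, 29.0% were lower and 26.6% higher in IRKO. The median log2 change of the 26 was −0.26, against 0.02 over all genes. By role, most genes of phosphorylase kinase fell, no phosphatase catalytic subunit was called (Ppp1cc lay at the threshold), and the other targeting subunits went both ways.

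In the breakdown arm, phosphorylase kinase switches phosphorylase on, and 4 of its 5 subunit genes fell, where 29.0% of all genes tested fell. Phkg1, a catalytic subunit, fell from 1748 and 1447 normalized counts to between 147 and 192 (−3.27 ± 0.153, log2 with SE). Phka1 (−1.71 ± 0.169) and Phkb (−1.61 ± 0.129), its regulatory subunits, fell less. Phkg2, the other catalytic subunit, had 1287 and 1160 in the controls and 877 to 1012 in IRKO (−0.37 ± 0.112, limma adjusted p = 0.0190). That call was lost with quantile normalization (adjusted p = 0.311), without control replicate 1 (0.148), without IRKO replicate 2 (0.0520) and with edgeR on 5 libraries (0.0574). Phka2, the alternative regulatory subunit, was the exception at 0.44 ± 0.211 (limma adjusted p = 0.104), and without control replicate 1 it passed, at 0.78 (0.0216).

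**Figure D4:**
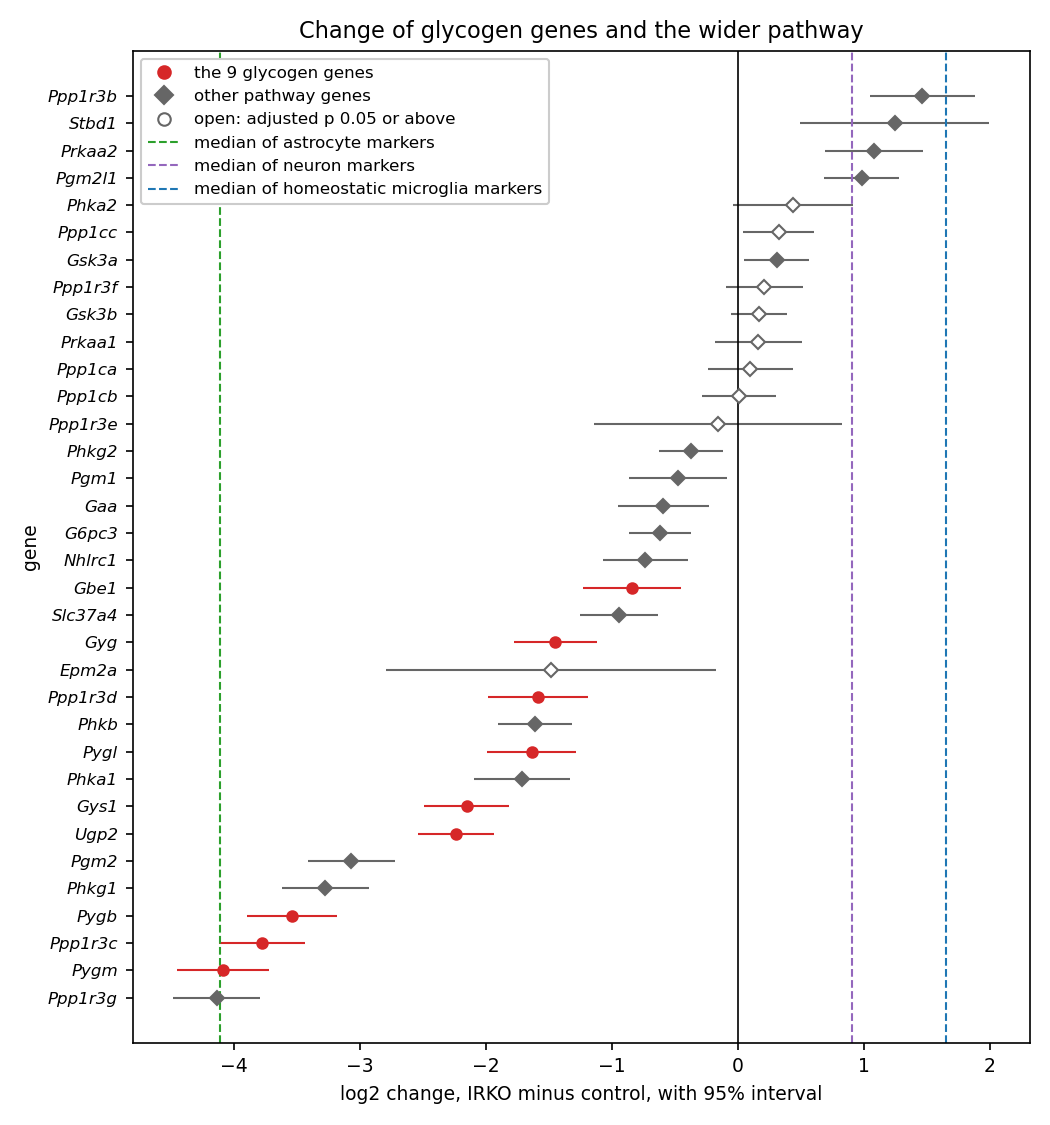
Log2 change (IRKO minus control) with its 95% interval for the 9 glycogen genes (circles) and 25 other pathway genes (diamonds); open symbols had an adjusted p of 0.05 or above, and dashed lines mark marker medians. The changes run from −4.14 (Ppp1r3g) to 1.46 (Ppp1r3b), and all 9 glycogen genes lie at or below −0.84.

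The catalytic subunit genes of the phosphatase that the targeting subunits carry stood at 0.10 ± 0.149 (Ppp1ca), 0.01 ± 0.130 (Ppp1cb) and 0.32 ± 0.124 (Ppp1cc), in log2 with the SE, and limma gave adjusted p-values of 0.593 and 0.954 for the first pair and 0.05003 for Ppp1cc, at the threshold. Ppp1cc passed in several alternatives, among them TMM scaling (adjusted p = 0.0392), quantile normalization (0.00238), DESeq2 (0.0316) and leaving out IRKO replicate 3 (0.0371). Among the further targeting subunits, Ppp1r3g fell from 3292 and 2551 normalized counts to between 144 and 187. Its log2 change of −4.14 ± 0.153 (limma adjusted p = 2.53e-07) was the lowest of all 35 pathway genes tested, Pygm included. Ppp1r3b, the subunit best known from liver, moved the other way, from 88.9 and 136 in the controls to 277 to 326 in IRKO (1.46 ± 0.185, limma adjusted p = 0.000190). Scaled to the microglia markers it stood at −0.13 (limma adjusted p = 0.657). Ppp1r3f (0.21 ± 0.136) and Ppp1r3e (−0.15 ± 0.436) were not called.

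Of the kinases that act on glycogen synthase, Gsk3a, which insulin signalling restrains, went from 3404 and 3242 normalized counts to between 3709 and 4387, a log2 change of 0.31 ± 0.115 (limma adjusted p = 0.0459). Its call did not hold with no filter, with no variance trend, or without any one of 5 libraries (both controls and IRKO replicates 2, 3 and 4), where the adjusted p ranged from 0.0539 to 0.208. Gsk3b stood at 0.17 ± 0.098 (limma adjusted p = 0.174). Prkaa2, a catalytic subunit of the energy sensor AMPK, rose from 142 and 169 to between 269 and 384 (1.08 ± 0.173), and Prkaa1, the other catalytic subunit, was not called (0.16 ± 0.153). All 4 kinases stood below 0 with libraries scaled to the microglia markers.

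Phosphoglucomutase links glycogen to glucose 6-phosphate. Pgm2 fell from 4851 and 3503 to between 446 and 556 (−3.07 ± 0.154), and Pgm1 had 192 and 160 in the controls and 113 to 137 in IRKO (−0.47 ± 0.171, limma adjusted p = 0.0396). The Pgm1 call was lost in several alternatives, and its adjusted p reached 0.249 without control replicate 1. These symbols have been exchanged between the genes of chromosomes 4 and 5, each of which lists the other's symbol as a synonym in RefSeq, so the locus behind either row is uncertain. Pgm2l1, a related enzyme that makes glucose 1,6-bisphosphate, rose from 1187 and 1291 to between 2135 and 2853 (0.98 ± 0.132), and turned to −0.62 with libraries scaled to the microglia markers.

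In glycogen quality control and the lysosomal route, Nhlrc1, the gene of malin, fell from 331 and 328 normalized counts to between 169 and 210 (−0.73 ± 0.149, limma adjusted p = 0.00275). Epm2a, the gene of its partner laforin, had 43.9 and 48.4 in the controls and 6.93 to 39.9 in IRKO, at −1.48 ± 0.580 with a limma adjusted p of 0.0543. Without IRKO replicate 4, the highest of its group, Epm2a stood at −1.91 (limma adjusted p = 0.0102). Gaa, the lysosomal glucosidase that degrades glycogen, had 4388 and 3368 in the controls and 2176 to 3050 in IRKO (−0.59 ± 0.160, limma adjusted p = 0.0118). The Gaa call was lost without control replicate 1 (adjusted p = 0.129) and with quantile normalization (0.163). Stbd1, which tethers glycogen to membranes, rose from 18.0 and 32.9 to between 40.8 and 68.3 (1.24 ± 0.332, limma adjusted p = 0.0111), a call lost without control replicate 1 (0.104). In the release of free glucose, G6pc3 (−0.62 ± 0.110) and the transporter gene Slc37a4 (−0.94 ± 0.138) both fell.

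The genes whose profiles over the 6 libraries lay nearest to each glycogen gene were looked up among 11034 others with a mean value of at least 100. Since the groups differ strongly, nearness mainly means a fall of the same size. Ppp1r3c lay nearest to Grm3, a glutamate receptor gene, at a root mean square difference of 0.05 in log2 units, followed by Dio2 (0.08) and Timp4 (0.09). Pygb lay nearest to Paqr8 (0.07), Fads1 (0.08) and Fam107a (0.08), and Pygm, with more distant neighbours, to Scara3 (0.13), Fam181b (0.13) and Fxyd1 (0.14). Gys1 and Ugp2 had Hsdl2 as a common near neighbour, at 0.05 and 0.09. Around Gys1 came Slc25a20 (0.07), the mitochondrial carnitine carrier, and Ak3 (0.07), and around Ugp2 Echdc1 (0.08). Pygl lay nearest to Aco1 (0.07), Ppp1r3d to Fam13c (0.07), Gyg to Pik3ip1 (0.05) and Gbe1 to Tom1l2 (0.03).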

How the data were processed

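The authors deposited 1 table of normalized counts, a signal per gene in each of 6 RiboTag libraries: 2 control and 4 IRKO. Bowtie2 and the build GRCm38.p6 are named per the submitters' processing notes. How reads were counted and normalized, on which annotation and with which strandedness, is not given in the sources used here. From the values, each column held read counts divided by 1 size factor, since 100% of values were whole multiples of the smallest one within 0.05 reads. In IRKO replicate 1 that step (0.991) lay too near 1 for a formal step test, so count tests were also run on the other 5 libraries.

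A gene was tested when at least 2 libraries reached a value of 10, which left 14698 of 18887. Values were taken as log2(value + 1), a scale that understates changes of low genes, and fitted with limma 3.58.1 in R 4.3.3 with a mean-variance trend, as IRKO minus control. Two-sided p-values were adjusted by the Benjamini-Hochberg method over all genes tested, and the threshold was 0.05. Intervals are 95%. Ratios between glycogen genes within a library were compared by an exact permutation test. This test was chosen after the data had been seen, in place of isozyme shares per coding length, since no transcript lengths were used here; for the same reason protein identities and promoter motifs were not analysed here. Coordinates come from RefSeq's gene table of GRCm38.p6, which matched 18542 symbols. The chi-square statistic of reads per degree of freedom was 17.2 to 38.2 between libraries of a group, so none was counted as a duplicate.

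The 9 glycogen genes, the lists of other pathway genes and markers, and the tests were chosen with earlier results of these data known. All 9 are named, as are the tested pathway genes except 1 that is not reported here, though the counts and medians include it, and for each of the 9 the 3 nearest profiles among genes with a mean of at least 100 and no predicted-gene symbol were found. The alternatives changed the pseudocount (0.5 or 5), the filter (none, or a value of 50), the scaling (TMM, quantile or to marker lists), the variance trend (none) or the test (edgeR 4.0.16 or DESeq2 1.42.0, both fed recovered reads), and further ones were a replicate block, and leaving out each library. The fit was tested on simulated data.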

Additional observations from a re-analysis of the deposited data

Results flagged for a closer look

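Stbd1 in IRKO replicate 3, at 40.8 normalized counts, lay far below the other IRKO libraries, which held 64.3 to 68.3. It was the only one of 35 glycogen and pathway genes with a library so far from the rest of the IRKO group, and chance gives such a library in about 5% of groups.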

How the results depend on the processing

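All 9 glycogen genes were lower in IRKO and passed the test under every alternative run except the scaling to astrocyte markers. That scaling left 0 of them lower and 7 higher, at a median of 1.92, with Pygb at 0.54, Pygl 2.41, Gys1 1.92, Gbe1 3.19, Gyg 2.62, Ppp1r3c 0.30, Ppp1r3d 2.46 and Ugp2 1.84. It turned the other pathway genes to 25 higher and 0 lower (among them Pgm1 3.55, Pgm2 1.01, Phka1 2.36, Phkb 2.46, Phkg1 0.80, Phkg2 3.70, Epm2a 2.37, Nhlrc1 3.32, Gaa 3.49, Ppp1r3e 3.62, G6pc3 3.46 and Slc37a4 3.12) and all genes to 14363 higher and 60 lower. The scaling to microglia markers gave a median of −3.75 for the 9, 0 pathway genes higher and 23 lower, and changed the sign of 12, called or not (Pgm2l1 −0.62, Phka2 −1.15, Stbd1 −0.32, Ppp1r3b −0.13, Ppp1r3f −1.39, Ppp1ca −1.50, Ppp1cb −1.59, Ppp1cc −1.27, Gsk3a −1.29, Gsk3b −1.43, Prkaa1 −1.43 and Prkaa2 −0.51), and 42 genes of all higher and 12300 lower. Both scalings centre libraries on lists that moved with the values as deposited, and which scaling is right was not tested. Quantile normalization gave −1.96 for the median of the 9 and moved that of all genes to 0.12.

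Leaving out each library in turn gave a median of −2.32 to −1.98 for the 9, with 4 to 5 pathway genes higher and 9 to 13 lower. The replicate numbers of the titles were not shown to pair libraries (correlations of deviations −0.08 and 0.08 for numbers 1 and 2). With them as a replicate block all 9 genes stayed lower (median −2.12), 5 pathway genes were higher and 12 lower, and all genes were 3244 higher and 3691 lower. The isozyme share per coding length and its alternatives were not run. Depth limits the low genes most, such as Epm2a and Stbd1.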

Other observations

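Of the other pathway genes 3 were too low to be tested. Gys2, the glycogen synthase best known from liver, had 0 normalized counts in control replicate 1, 16.5 in control replicate 2 and at most 0.99 in IRKO. Control replicate 2 was also the library with the highest summed liver markers (79773). Ppp1r3a, a targeting subunit of skeletal muscle, was read in IRKO replicate 4 only, at 2.92 normalized counts. G6pc, the glucose 6-phosphatase of liver, had 3.87 in control replicate 2, 2.92 in IRKO replicate 4 and 0 in the other libraries.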
